A study of Mus musculus with 7 samples.

Results

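The lowest dose of STM2457, an inhibitor of the enzyme METTL3, was examined in 2 pairs of libraries, each made of 1 library from cells given 10 µM and 1 library from DMSO-treated cells with the same replicate number. Chromatin-associated RNA sequencing (ChrRNA-seq), which enriches nascent and nucleus-retained transcripts, was performed in C7H8 mouse embryonic stem cells (mES cells). These XX cells have a Cast x 129S hybrid background and carry a TetOn promoter in place of the endogenous Xist promoter on the Cast chromosome, so that doxycycline (Dox) turns this chromosome into the inactive X (Xi) and leaves the 129S chromosome as the active X (Xa). Every library, DMSO controls included, came from cells of this single clone, grown on inactivated mouse fibroblast feeders in serum and LIF. The cells were held in DMSO or STM2457 for 6 h. They were then kept for 24 h more with Dox at 1 µg/mL while the same treatment continued. The 4 paired libraries are part of a set of 7. The other libraries were DMSO replicate 3 and 1 library each at 20 µM and 30 µM. Genes whose mean over the 4 paired libraries reached 1 RPM (read pairs on the gene, scaled to a common total on all genes) were kept, which left 13656 of 22556 genes. The ratio table, in which the share Xi/(Xi + Xa) is given for each X-linked gene, held 386 genes, of which 385 met the same minimum.

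METTL3 is the catalytic subunit of the complex that writes N6-methyladenosine (m6A) on nascent RNA polymerase II transcripts. The mark is read by YTH-domain proteins and others, which couple it to splicing, nuclear retention or decay, and cytoplasmic turnover of the RNA. In mES cells many pluripotency and developmental transcripts carry it, and so does Xist, the long noncoding RNA that coats the X chromosome in cis and recruits silencing factors. Because chromatin-associated RNA holds unspliced transcripts and stable nuclear RNAs together, a level in these libraries is set by transcription, by release from chromatin and by nuclear decay.

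Depth in the 4 paired libraries was 20915215 and 28030180 read pairs on genes in DMSO replicates 1 and 2, and 25366220 and 23470182 at 10 µM. Libraries with the same number were more alike than libraries with the same treatment. The correlation of log2 RPM was 0.995 within each pair, against 0.992 between the DMSO libraries, and the deviations of same-numbered libraries from their group means correlated with r = 0.623 over 13656 genes. DMSO replicate 3 stood apart, and is therefore used below only beside the 20 µM and 30 µM libraries. Mettl3 RNA, which a catalytic inhibitor need not change, was at 41.2 and 39.1 RPM in DMSO replicates 1 and 2 and at 40.2 and 42.6 RPM at 10 µM. Xist was at 1540 and 1690 RPM in DMSO and at 1654 and 1720 RPM at 10 µM, a mean paired log2 difference of 0.06 (exact permutation test over the pairs, two-sided, p = 0.5, the smallest that 2 pairs allow). Embryonic stem cell markers summed to 2156 and 2046 RPM in DMSO and to 1945 and 2096 RPM at 10 µM. Of these 12 markers, 11 were tested and Sox2 was listed at 0 in every library. Of 22 fibroblast feeder markers only 8 reached the minimum, and Col1a1, Col1a2, Col3a1, Postn, Lum and Dcn were under 1 RPM in every library.

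Treatment at 10 µM moved many genes in the same direction in both pairs, and most of the changes were small. With limma on log2(RPM + 1) and the replicate number as a block, 1022 of 13656 genes (7.48%) passed a Benjamini-Hochberg adjusted p of 0.05. A total of 567 were higher (4.15%) and 455 were lower (3.33%) than in DMSO. With TMM factors the larger direction turned, to 399 higher and 464 lower. All 455 genes called lower fell in both pairs and 563 of those called higher rose in both. As the calls were made on the mean of these same 2 differences, such agreement is largely fixed by the selection. Through the minimum of 1 RPM on the mean of the 4 libraries, 22 genes called higher had a DMSO mean under 1 RPM and 6 called lower a 10 µM mean under it, so that these entered only through the group in which they were high. Over all genes tested, 63.2% moved the same way in both pairs, 36.4% higher and 26.8% lower. The median log2 difference of called genes was 0.35 and 0.40 in pairs 1 and 2 for genes called higher, and -0.35 and -0.29 for genes called lower, against -0.02 and 0.07 for all genes. In the plot of both pairs the called genes lie along the diagonal, a place that the selection largely fixes, as it does their medians. edgeR's quasi-likelihood test on the recovered read pairs, with the same block, called 427 genes higher (3.13%) and 404 lower (2.96%), of which 365 and 317 were shared with limma. DESeq2 called 46 higher (0.337%) and 107 lower (0.784%), all of them among the limma calls. These calls need the pairs: limma without the block called 1 gene, and with a single residual degree of freedom each p-value, and each moderated SE given below, rests on the spread common to genes of like level and not on the gene's own 2 pairs. Leaving out either DMSO library left 0 calls in limma (517 and 737 genes at an unadjusted p under 0.05, DMSO replicate 1 or 2 left out), and leaving out 10 µM replicate 1 or 2 left 58 and 36.

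**Figure D1:**
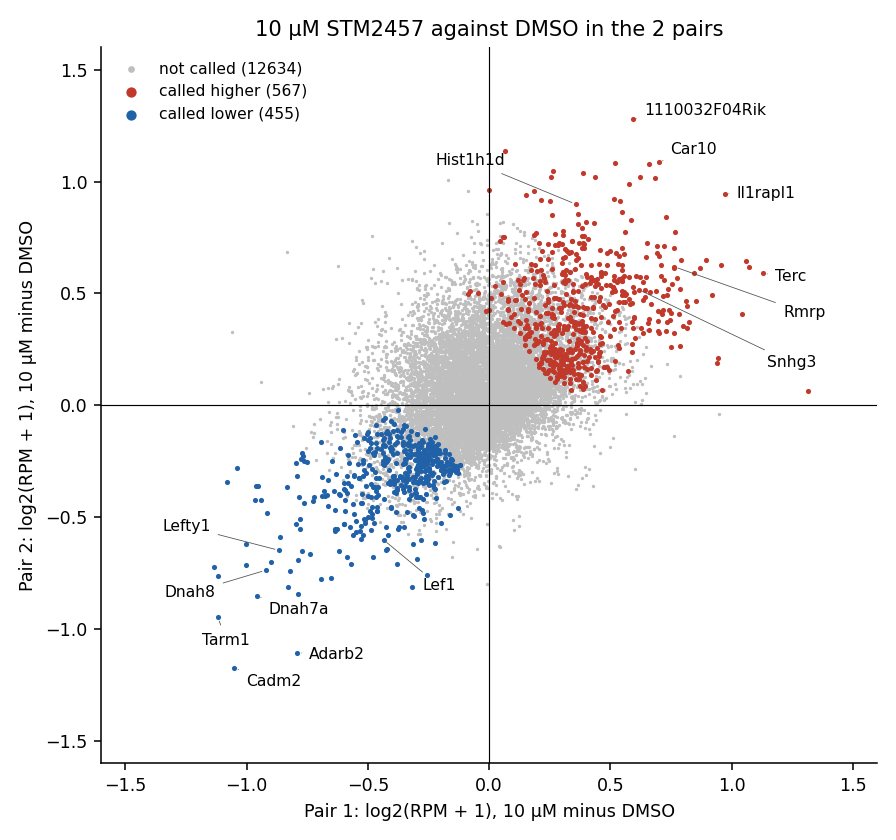
Each point is 1 of 13656 genes, with its difference in log2(RPM + 1) between 10 µM and DMSO in pair 1 on the x axis and in pair 2 on the y axis. The 567 genes called higher (red) and the 455 called lower (blue) lie at the ends of the diagonal, with Cadm2 farthest down. Calls were made on the mean of both pairs, which largely fixes this place.

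Cadm2, Dnah7a and Dnah8 were among the 12 largest falls. Cadm2, a synaptic cell adhesion molecule (chromosome 16, 66655420 to 67620908, minus strand, mm10), was at 103 and 109 RPM in DMSO and at 49.0 and 47.9 RPM at 10 µM. The 10 µM libraries lay below both DMSO libraries, as they did in 13.6% of all genes tested. They differed from each other by less than the DMSO libraries did. The mean log2 difference was -1.11 ± 0.08 (moderated SE; limma adjusted p = 1.12e-37), and Cadm2 was the gene that also passed without the block (limma adjusted p = 0.0499). Dnah8, an axonemal dynein heavy chain (chromosome 17, 30626935 to 30875264, plus strand), was at 141 and 204 RPM in DMSO and at 74.0 and 122 RPM at 10 µM. Dnah7a, of the same family (chromosome 1, 53397001 to 53706784, minus strand), was at 43.4 and 48.6 RPM in DMSO and at 21.9 and 26.5 RPM at 10 µM. Their mean log2 differences were -0.83 ± 0.07 and -0.90 ± 0.11 (moderated SE; limma adjusted p = 4.56e-27 and 2.43e-14), and in both genes neither 10 µM library reached a DMSO library. Adarb2, a member of the ADAR family without known editing activity, went from 13.0 and 11.1 RPM to 7.10 and 4.60 RPM. Also among the 12 largest falls were Tarm1, Pla2g4c, Olfml1, Trpc5os, Spaca7, the lncRNA Peril and 4930447K03Rik, with mean log2 differences between -1.03 and -0.81. Trpc5os met the minimum only through its DMSO libraries.

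The 12 largest rises included very long genes and very short ones. Il1rapl1, a synaptic receptor-like protein (chromosome X, 86747241 to 88115623, minus strand), rose from 8.51 and 7.63 RPM in DMSO to 17.7 and 15.6 RPM at 10 µM, a mean log2 difference of 0.96 ± 0.15 (moderated SE; limma adjusted p = 1.32e-07). Car10, a carbonic anhydrase-related protein without catalytic activity (chromosome 11, 93099289 to 93601751, plus strand), rose from 2.96 and 4.42 RPM to 5.44 and 10.5 RPM. Nav3, which encodes a neuron navigator protein, rose from 3.44 and 3.5 RPM to 5.36 and 8.52 RPM. In these long genes each 10 µM library was above both DMSO libraries, as in 20.9% of all genes tested. Among the short ones, Terc, the RNA template of telomerase (chromosome 3, 96414436 to 96414833, minus strand), rose from 14.6 and 20.9 RPM to 33.2 and 31.9 RPM. Its log2 difference was 1.13 in pair 1 and 0.59 in pair 2, a mean of 0.86 ± 0.12 (moderated SE; limma adjusted p = 7.63e-10). Hist1h4a, which encodes histone H4, rose from 11.9 and 12.2 RPM to 19.4 and 27.0 RPM. Foxd3, a transcription factor of pluripotent cells and neural crest with a single exon, rose from 3.16 and 3.46 RPM to 5.40 and 8.05 RPM. The remaining largest rises were 1110032F04Rik, 5730408K05Rik, Zfp629, Gm5108, Mettl18 and Cbr3, with mean log2 differences between 0.79 and 0.94. Of these, 1110032F04Rik and Gm5108 met the minimum only through their 10 µM libraries.

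The 20 µM and 30 µM libraries and DMSO replicate 3 share no library with the 10 µM pairs, so the genes called at 10 µM could be read in them, without a test since each dose had 1 library. Of the 455 genes called lower, 94.7% were lower at 20 µM than in DMSO replicate 3 (62.0% of all genes) and 77.8% at 30 µM (43.4% of all). Of the 567 genes called higher, 71.6% were higher at 20 µM (37.9% of all) and 69.1% at 30 µM (56.6% of all). Both higher doses moved 76.7% of the genes called lower in that direction, against 34.3% of all genes, and 57.3% of those called higher, against 28.9%. The 2 doses are set against the same DMSO library, so they are not independent of each other. Depth was 21472037 read pairs on genes in DMSO replicate 3 and 23367051 at 30 µM, but only 9300549 at 20 µM. Cadm2 was at 75.4 RPM in DMSO replicate 3, at 28.9 RPM at 20 µM and at 27.5 RPM at 30 µM. Dnah7a was at 219 RPM in DMSO replicate 3 and at 79.7 and 82.5 RPM at the higher doses, and Dnah8 was at 146, 58.2 and 58.1 RPM. Car10 was at 5.68 RPM in DMSO replicate 3 and at 25.4 and 34.2 RPM. Il1rapl1 was at 22.4, 34.1 and 30.9 RPM. These genes kept their direction although the DMSO level itself differed between replicate 3 and the pairs, for Dnah7a and Il1rapl1 by more than the effect. Terc did not: it was at 3.77 RPM in DMSO replicate 3 and at 1.29 and 3.0 RPM at 20 µM and 30 µM.

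**Figure D2:**
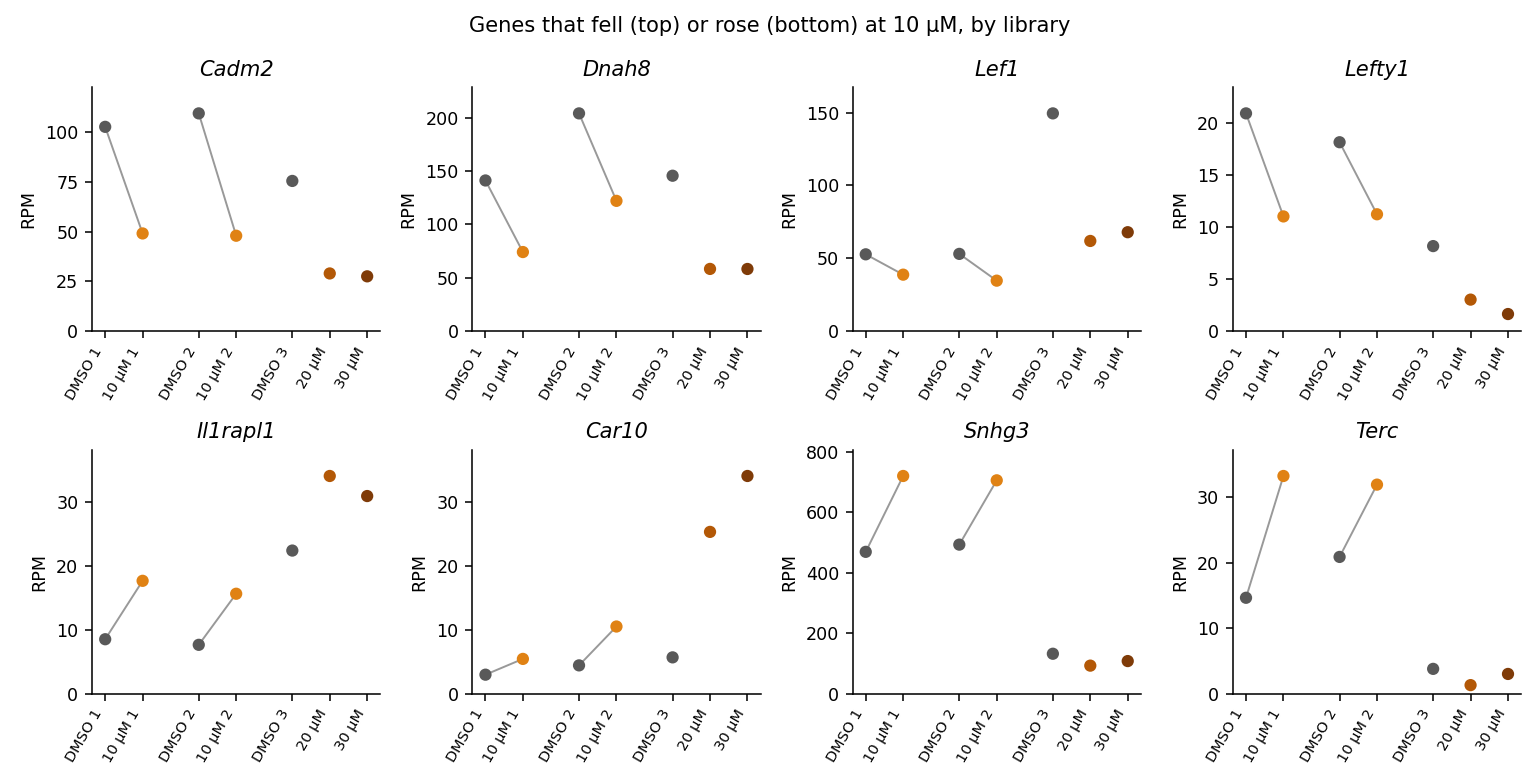
RPM of 8 genes in each of the 7 libraries, with a line joining the DMSO and 10 µM libraries of a pair and the y axis starting at 0. The top row shows genes that fell and the bottom row genes that rose in both pairs, and Snhg3 and Terc are the rising genes that were lower at 20 µM and 30 µM than in DMSO replicate 3.

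The direction of the calls differed with gene span, the distance from the first to the last base of the gene in mm10. Genes called lower had a median span of 77876 bases and 13 exons in their longest transcript, genes called higher 16267 bases and 6 exons, and genes not called 24376.5 bases and 8 exons. The tested genes were divided by span into 5 classes of nearly equal size. In the class of shortest genes (276 to 8610 bases) 185 genes were called higher and 11 lower. In the class of longest genes (76203 to 2270660 bases) 140 were called higher and 231 lower. The shift of short genes came mainly from pair 2: the median log2 difference of the shortest class was 0.03 in pair 1 and 0.25 in pair 2, and that of the longest class was -0.00 and -0.03. In pair 1 the classes between them had medians of -0.04, -0.04 and -0.02, without a gradient. Span went with level, with a median of 6.94 RPM in the shortest class and 81.9 RPM in the longest. In the fifth of genes with the lowest level 95 were called higher and 22 lower, and in the highest 162 and 204. Span and level were not told apart. When the differences of each pair were centred within 20 classes of span, a step added after the values were seen, 611 genes were called higher and 678 lower, and 426 and 434 of the main calls were among them. In the longest class the higher doses gave the same direction for the genes called: 97.4% of the genes called lower were lower at 20 µM and 76.6% at 30 µM, against 69.7% and 38.2% of genes not called. For long genes called higher these shares were 81.4% and 90.0% higher, against 30.3% and 61.8%. In the shortest class, 58.9% and 45.4% of the genes called higher were higher at 20 µM and 30 µM, against 50.9% and 49.3% of short genes not called.

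**Figure D3:**
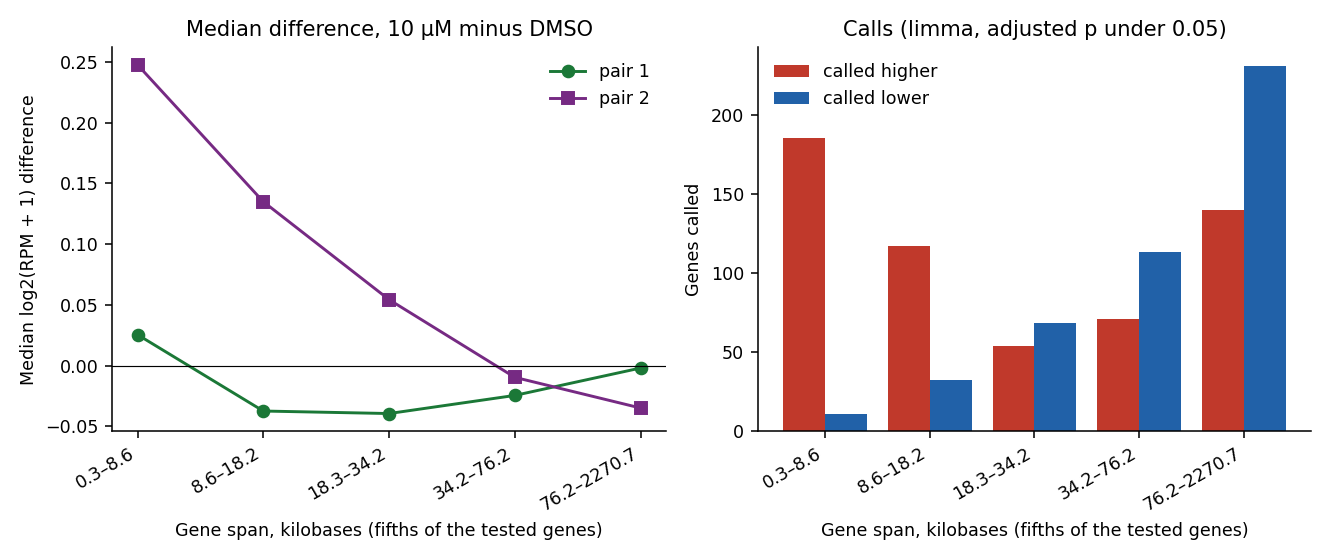
The tested genes in 5 classes by gene span in kilobases, from shortest to longest. Left, the median difference in log2(RPM + 1) in each pair, which reaches 0.25 for short genes in pair 2 and 0.03 in pair 1; right, the number of genes called higher and lower in each class.

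Among 43 gene lists and name classes, snoRNA host genes had the largest share of calls in the limma fit, but not when the differences were centred by span. These genes carry small nucleolar RNAs in their introns, and several of their spliced transcripts have no known protein product. Of 28 tested, 15 were higher and 0 lower at 10 µM (4.15% and 3.33% of all genes), and the median log2 difference was 0.25 in pair 1 and 0.24 in pair 2. Snhg3 was at 469 and 492 RPM in DMSO and at 719 and 705 RPM at 10 µM, a mean log2 difference of 0.57 ± 0.06 (moderated SE; limma adjusted p = 1.75e-16; edgeR adjusted p = 0.000937). Snhg4 rose from 235 and 253 RPM to 323 and 334 RPM, and Snhg6 from 43.3 and 57.2 RPM to 58.2 and 75.2 RPM. Snhg18 rose from 2.39 and 2.18 RPM to 3.47 and 4.60 RPM. Both 10 µM libraries were above both DMSO libraries in 15 of the 28 genes (53.6%, against 20.9% of all genes tested), these 4 included. edgeR called 8 of the list higher, DESeq2 3, and the fit centred by span 4. At 20 µM and 30 µM the median of the list was -0.27 and -0.11 against DMSO replicate 3, the reverse of the 10 µM direction.

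Many snoRNA host genes belong to the 5′ TOP class, whose transcripts start with a C followed by a run of pyrimidines. The first bases of noncoding hosts called higher are printed to show which of them hold this element, which ribosomal protein genes are also known for. Each line runs from 10 bases before the RefSeq start to 20 bases from it (GRCm38.p6), and capitals mark a C followed by at least 5 pyrimidines (C or T), the C within 10 bases of the start, where there is one.
Snhg18 (chr15:32244643-32244672, minus strand): cccaggcccCTCCTCTagccccgcctcttc
Snhg3 (chr4:132353667-132353696, minus strand): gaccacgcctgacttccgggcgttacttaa
Snhg7 (chr2:26640225-26640254, minus strand): gatgctcggCCTCTCggcagccatggcggc
Snhg12 (chr4:132308668-132308697, plus strand): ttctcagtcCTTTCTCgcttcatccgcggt
Gas5 (chr1:161035156-161035185, plus strand): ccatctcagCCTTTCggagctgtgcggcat
Snhg1 (chr19:8723477-8723506, plus strand): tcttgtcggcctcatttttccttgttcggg
Such a run stood at 19.2% of 32851 RefSeq promoters, at 8 of the 20 host genes whose start could be matched within 100 bases, and at 50.9% of 57 ribosomal protein genes. It stood at 25.5% of 364 matched genes called higher and at 20.2% of 317 called lower. Snhg3 and Snhg1 had no such run in this window. Snhg7 rose from 60.8 and 76.2 RPM to 75.5 and 96.7 RPM, Snhg12 from 92.5 and 123 RPM to 115 and 136 RPM, and Gas5 from 919 and 970 RPM to 1125 and 1061 RPM. For Snhg7 and Snhg12 the 10 µM library of pair 1 was below the DMSO library of pair 2, so that their groups overlapped and the rise was seen within pairs. For Gas5 and Snhg1 (365 and 364 RPM in DMSO, 439 and 404 RPM at 10 µM) the groups did not overlap.

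Cytoplasmic ribosomal protein genes rose together, more in pair 2 than in pair 1. Of 78 tested, 34 were higher and 0 lower (4.15% and 3.33% of all genes). The median log2 difference was 0.12 in pair 1 and 0.35 in pair 2. Rps29 was at 13.5 and 17.1 RPM in DMSO and at 25.2 and 24.0 RPM at 10 µM, a mean log2 difference of 0.66 ± 0.13 (moderated SE; limma adjusted p = 5.09e-05). Rpl18 went from 31.3 and 34.8 RPM to 39.5 and 51.8 RPM, Rps21 from 20.8 and 25.2 RPM to 27.6 and 34.5 RPM, and the X-linked Rpl36a from 58.4 and 69.3 RPM to 73.0 and 98.2 RPM. Both 10 µM libraries were above both DMSO libraries in 34 of the 78 genes (43.6%, against 20.9% of all genes), these 4 included. The list's genes are short (median span 2987.5 bases). The fit centred by span called 6 of them higher and 0 lower (611 and 678 of all 13656 genes). At 20 µM the median of the list was 0.24 and at 30 µM -0.11 against DMSO replicate 3.

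Replication-dependent histone genes, which have no introns and no poly(A) tail, moved in pair 2 alone as a list. Their median log2 difference was -0.01 in pair 1 and 0.50 in pair 2. Of 48 tested, 8 were called higher (16.7%) and 0 lower, against 4.15% and 3.33% of all genes. Hist1h1d, a linker histone H1, was at 36.0 and 46.7 RPM in DMSO and at 46.4 and 88.0 RPM at 10 µM. Hist4h4 was at 7.84 and 7.38 RPM in DMSO and at 7.85 and 15.3 RPM at 10 µM, so that its call (limma adjusted p = 0.0400) came from pair 2. Centred by span, 2 histone genes were called higher and 3 lower (611 and 678 of all 13656 genes). Ribosomal protein and histone genes have near-identical copies, and as only unique alignments were kept, their levels are uncertain. Outside these lists, Rmrp, the RNA of the RNase MRP complex (chromosome 4, 43492784 to 43493059, minus strand), was at 4415 and 3959 RPM in DMSO and at 7494 and 6083 RPM at 10 µM, a mean log2 difference of 0.69 ± 0.07 (moderated SE; limma adjusted p = 4.65e-17), which edgeR did not call (edgeR adjusted p = 0.0741). It was at 507 RPM in DMSO replicate 3 and at 412 and 598 RPM at 20 µM and 30 µM.

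Targets of ATF4, the transcription factor of the integrated stress response, gave similar counts with and without centring by span. Of 37 tested, 12 were higher and 0 lower (4.15% and 3.33% of all genes). The fit centred by span called 11 higher and 0 lower (611 and 678 of all 13656 genes). edgeR called 9 higher, and DESeq2 called 0 of them, with 5031 of all genes left without an adjusted p by its filter. The median log2 difference was 0.03 in pair 1 and 0.42 in pair 2, so the list as a whole moved in pair 2. Slc7a11, the cystine transporter, was at 1.58 and 4.50 RPM in DMSO and at 2.68 and 9.42 RPM at 10 µM. Vldlr, a lipoprotein receptor, went from 15.1 and 19.4 RPM to 17.3 and 30.5 RPM. Chac1, a glutathione-degrading enzyme, went from 3.01 and 5.14 RPM to 3.19 and 12.5 RPM, a change of 0.06 in pair 1 and 1.14 in pair 2 on the log2 scale. In these 3 genes the DMSO library of pair 2 was above that of pair 1, and the groups overlapped. Both 10 µM libraries were above both DMSO libraries in 4 of the 37 genes (10.8%, against 20.9% of all genes). At 20 µM and 30 µM the median of the list was -0.06 and -0.03 against DMSO replicate 3. Of 20 unfolded protein response genes, limma, edgeR and DESeq2 called 0, with 2 at an unadjusted limma p under 0.05. The fit centred by span called 0 of them higher and 3 lower.

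Signalling targets and cell identity genes gave a few calls each. Of all genes tested, 4.15% were called higher and 3.33% lower. Lefty1 and Lefty2, secreted inhibitors and targets of Nodal, fell from 20.9 and 18.1 RPM to 11 and 11.2 RPM and from 86.3 and 77.7 RPM to 57.3 and 60.9 RPM. Their mean log2 differences were -0.76 ± 0.14 and -0.46 ± 0.08 (moderated SE; limma adjusted p = 1.72e-05 and 4.43e-06), and edgeR and DESeq2 called both. Id3, a BMP target, rose from 1.91 and 2.5 RPM to 2.64 and 4.64 RPM, and the other 14 of 17 Nodal and BMP targets were not called. Lef1, a transcription factor and target of Wnt signalling, fell from 52.6 and 52.9 RPM to 38.7 and 34.6 RPM, and it was lower at 20 µM and 30 µM too (61.8 and 67.8 RPM, against 149 RPM in DMSO replicate 3). Lefty1 was at 8.15 RPM in DMSO replicate 3 and at 3.01 and 1.63 RPM at the higher doses. Ccnd1, a G1 cyclin that Wnt signalling also induces, rose from 21.4 and 13.4 RPM to 25.5 and 22.7 RPM. Of formative genes, Otx2 fell from 19.7 and 20.2 RPM to 11.3 and 16.8 RPM, and Pou3f1, at 0.622 and 0.642 RPM in DMSO and 1.34 and 1.41 RPM at 10 µM, met the minimum only through the 10 µM libraries. Of 23 naive pluripotency factors, Klf5 alone was called, lower at 130 and 162 RPM than in DMSO (173 and 179 RPM). Centred by span, 0 of the naive factors were called higher and 7 lower (611 and 678 of all 13656 genes). Their medians before centring were -0.21 in pair 1 and -0.00 in pair 2.

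Cell cycle, antiviral and metabolic genes moved in smaller numbers, read here beside the 4.15% of all genes called higher and 3.33% called lower. Of 25 G2/M genes 5 were lower and 0 higher, among them Cdc25c, a mitotic phosphatase (25.0 and 20.1 RPM in DMSO, 16.3 and 17.1 RPM at 10 µM), and Cenpa, the centromeric histone H3 variant (101 and 94.2 RPM in DMSO, 71.0 and 84.6 RPM at 10 µM). Of 24 genes of double-stranded RNA sensing and the interferon response, Ddx60, Ddx58 (RIG-I) and Eif2ak2 (PKR) were lower and none was higher. Ddx60 fell from 18.0 and 28.4 RPM to 12.7 and 17.3 RPM, and Ddx58 and Eif2ak2 had log2 differences of -0.38 and -0.30. Of 21 glycolysis genes, Gpi1, Slc2a1 and Hk2 were lower and Gapdh, Tpi1 and Aldoa were called higher. Of the latter only Tpi1 rose in both pairs (0.26 and 0.40 on the log2 scale), whereas Gapdh had -0.09 and 0.50 and Aldoa 0.00 and 0.43. Gpi1, glucose-6-phosphate isomerase, fell from 370 and 390 RPM to 291 and 308 RPM in limma, edgeR and DESeq2. Gapdh, Tpi1 and Aldoa are short genes and none of them was called when centred by span. Sqle, squalene epoxidase of cholesterol synthesis, was lower with a log2 difference of -0.25, and was higher at 20 µM and 30 µM than in DMSO replicate 3. Of 20 heat shock and chaperone genes 4 were higher (Cacybp, Hspd1, Hsp90aa1 and Hspa8), of which edgeR called 1, and of 75 nuclear genes of oxidative phosphorylation 3 were higher (4.0%), near the 4.15% of all genes.

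Of the RNA and chromatin regulators, the 8 genes of the m6A writer complex and the 25 genes of nuclear RNA decay gave no call in limma, edgeR or DESeq2 (1 and 3 genes at an unadjusted limma p under 0.05). Among 15 readers and erasers of m6A, Igf2bp3 and Hnrnpc were lower, with log2 differences of -0.23 and -0.19, and neither was called by edgeR. Tra2a, a splicing activator, was lower and Srsf1, an SR protein, higher, and edgeR called neither (edgeR adjusted p = 0.122 and 0.216). Of 27 genes of DNA methylation and retroelement silencing, Tet1, a 5-methylcytosine dioxygenase, fell from 812 and 841 RPM to 660 and 690 RPM, and Atf7ip, a partner of SETDB1, fell from 338 and 404 RPM to 266 and 328 RPM. Among 32 Polycomb genes Phc1 was lower, and among 20 silencing factors of Xist, Spen was lower (109 and 115 RPM in DMSO, 88.9 and 95.7 RPM at 10 µM). For Tet1 and Spen both 10 µM libraries were below both DMSO libraries, as in 13.6% of all genes tested. edgeR did not call Tet1 or Phc1 (edgeR adjusted p = 0.136 and 0.0720) and called Spen (edgeR adjusted p = 0.0221). DESeq2 did not call Spen or Phc1 (DESeq2 adjusted p = 0.127 and 0.0996) and called Tet1 (DESeq2 adjusted p = 0.0158). Of 331 zinc finger genes named Zfp, 23 were called higher and 4 lower (6.95% and 1.21%, against 4.15% and 3.33% of all genes). Centred by span, 26 were higher and 6 lower (611 and 678 of all 13656 genes). Zfp937 rose from 15.1 and 18.9 RPM to 27.2 and 26.5 RPM, and Zfp706 fell from 47.4 and 55.3 RPM to 34.8 and 41.1 RPM. Levels of near-identical family members are uncertain for the same reason. Of 19 nuclear long noncoding RNAs tested, 4 were higher (Terc, Rmrp, Gas5 and 2900097C17Rik) and 3 lower (21.1% and 15.8%, against 4.15% and 3.33% of all genes). The RNA 2900097C17Rik rose from 13.6 and 11.8 RPM to 20.4 and 18.4 RPM. Meg3 fell from 1639 and 1292 RPM to 1209 and 1087 RPM and Firre from 676 and 631 RPM to 579 and 571 RPM. Of Meg3 and Firre, edgeR called neither (edgeR adjusted p = 0.138 and 0.359) and DESeq2 called Meg3 alone. Neat1 fell from 341 and 223 RPM to 247 and 204 RPM, with the fall mostly in pair 1. It was lower at 20 µM (155 RPM) and higher at 30 µM (330 RPM) than in DMSO replicate 3 (185 RPM). Kcnq1ot1, an imprinted antisense RNA, was at 1392 and 1401 RPM in DMSO and at 1481 and 1483 RPM at 10 µM and was not called.

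**Figure D4:**
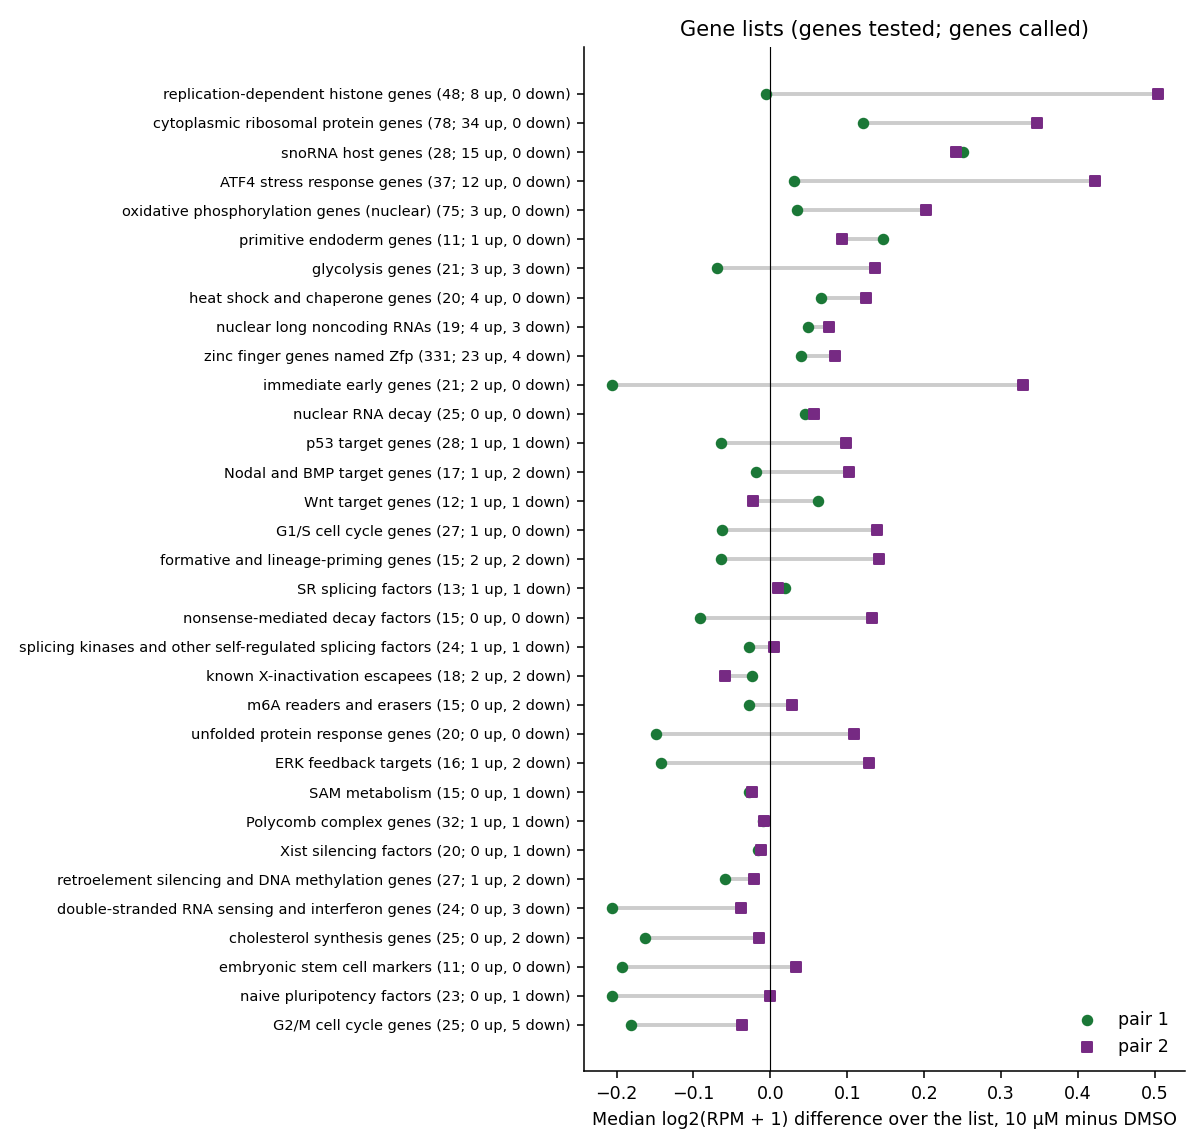
Median difference in log2(RPM + 1) between 10 µM and DMSO over each gene list, in pair 1 (circles) and pair 2 (squares). Labels give the genes tested and those called; the snoRNA host genes sit at 0.25 and 0.24, whereas the histone, ATF4 and immediate early lists differ between the pairs.

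Of the fibroblast feeder markers tested, Fn1, which encodes fibronectin and which embryonic cells also express, fell from 1092 and 1148 RPM to 869 and 1000 RPM (limma adjusted p = 0.00152) and made up most of the sum of that list. The list summed to 1205 and 1246 RPM in DMSO and to 976 and 1103 RPM at 10 µM. Fewer feeder cells and less RNA per cell cannot be told apart in bulk libraries, and the part of feeders in the genes called lower was not tested. Primitive endoderm genes, a possible differentiated fraction of such cultures, summed to 1110 and 985 RPM in DMSO and to 1075 and 969 RPM at 10 µM. In this list Col4a1 alone was called, higher at 66.3 and 61.1 RPM than in DMSO (50.3 and 48.3 RPM).

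Whether silencing of the X chromosome changed at 10 µM was read from the allelic ratio. The median ratio over 386 genes was 0.313 and 0.307 in DMSO replicates 1 and 2 and 0.288 and 0.292 at 10 µM, a difference of -0.0252 and -0.0153 in pairs 1 and 2 (exact permutation test over the pairs, two-sided, p = 0.5, the smallest possible). The ratio was lower in both pairs for 199 genes (51.6%) and higher in both for 41 (10.6%). The median log2 difference of the Xi level was -0.16 and -0.13 and that of the Xa level was 0.00064 and -0.0104, so the fall was on the Xi. No single gene passed the adjusted threshold (limma, 0 of 386, with 30 at an unadjusted p under 0.05), and the differences of the pairs were unrelated across genes (r = 0.0101, a description over 386 genes). At 20 µM and 30 µM, against DMSO replicate 3, the median difference of the Xi level was -0.41 and -0.40, each from 1 library.

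The spread of single genes followed their level. Among 39 genes under 5 RPM the SD of the paired difference in ratio was 0.0995 and 0.116 in pairs 1 and 2, and among 104 genes over 100 RPM it was 0.0253 and 0.0219. The median differences of this highest class were -0.0201 and -0.0122, and 71 of its 104 genes were lower in both pairs. Gria3, a glutamate receptor subunit, had the largest fall, from 0.310 and 0.414 to 0.190 and 0.118. Nr0b1 (Dax1), a pluripotency-associated nuclear receptor, fell from 0.326 and 0.271 to 0.228 and 0.168, and G6pdx, an enzyme of the pentose phosphate pathway, from 0.387 and 0.347 to 0.297 and 0.280. Pcyt1b, Mtap7d3 and Trap1a were the other largest falls. The largest rise was that of Timp1, an inhibitor of matrix proteases, from 0.211 and 0.211 to 0.313 and 0.323, and Timp1 was lower at 20 µM and 30 µM (0.238 and 0.186) than in DMSO replicate 3 (0.283). All 12 genes had a limma adjusted p of 0.504, and as the number of allelic reads is unknown, no interval was given.

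Genes known to escape X inactivation in other systems had medians nearer 0, a difference from other genes that was not tested. Over 17 escapees with a ratio the median difference was 0.00151 in pair 1 and -0.0019 in pair 2, with 4 lower in both pairs and 4 higher in both, against -0.0228 and -0.0146 over all 386 genes. Kdm6a, a histone demethylase, was at 0.414 and 0.422 in DMSO and at 0.420 and 0.420 at 10 µM. Mid1, a ubiquitin ligase, was at 0.970 and 0.975 in DMSO and at 0.971 and 0.979 at 10 µM. Unlike the other escapees, Mid1 was near the top of the scale in DMSO too, with nearly all its allelic signal on the Xi. Its unmoved ratio therefore says little about escape. Ddx3x, an RNA helicase, was lower in both pairs (0.418 and 0.445 in DMSO, 0.397 and 0.421 at 10 µM), and so was Pbdc1, with differences of -0.0469 and -0.0347 that exceeded the medians of all genes. In chromatin-associated RNA of both alleles together 21 of 490 X-linked genes were called higher and 24 lower (4.29% and 4.90%, against 4.15% and 3.27% of autosomal genes). Fam120c fell from 93.7 and 81.3 RPM to 54.0 and 55.1 RPM, a mean log2 difference of -0.67 ± 0.08 (moderated SE; limma adjusted p = 9.74e-13), while its allelic ratio rose by 0.0308 in pair 1 and fell by 0.0260 in pair 2.

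**Figure D5:**
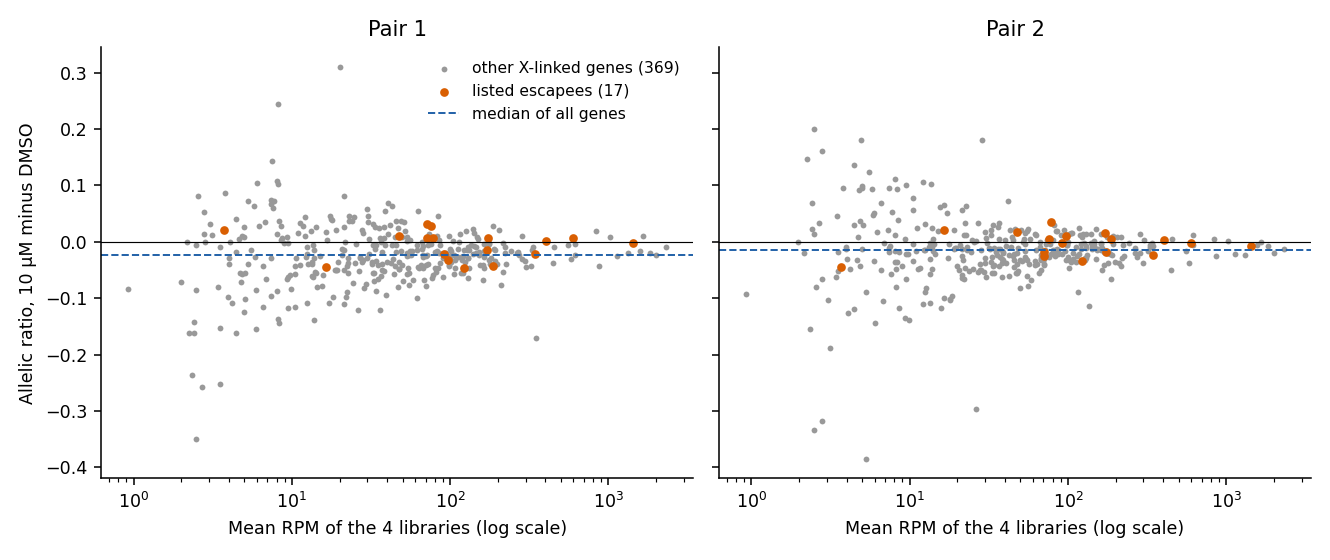
Difference in allelic ratio Xi/(Xi + Xa) between 10 µM and DMSO for each of 386 X-linked genes against the mean RPM of the gene (log scale), in each pair. The dashed line marks the median of all genes, -0.0228 in pair 1 and -0.0146 in pair 2, and the 17 escapees (orange) scatter around 0.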

How the data were processed

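Reads on rRNA were discarded by the authors (Bowtie2), STAR placed the others on N-masked mm10, and featureCounts assigned stranded pairs to whole transcripts. The deposited values are RPM computed with edgeR. The authors split alignments between alleles with SNPsplit and deposited the ratio Xi/(Xi + Xa) as a fraction, with unknown coverage. Whole read-pair counts were recovered from the deposited RPM for 100% of values. Depth of the 4 libraries ran from 20915215 to 28030180 read pairs, which limits low genes by counting error only.

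Pairs came from the replicate numbers and the study's reporting summary, by which treated and control wells of 1 replicate shared a batch of cells. The r of deviations was 0.623 for expression and -0.00941 for ratios. With 2 pairs, p-values reflect these libraries only, and the limma p-values of expression rest on the spread common to genes of like level. limma 3.58.1 in R 4.3.3 (eBayes with trend, replicate block) was fitted to log2(RPM + 1), which understates the change of low genes, and to the log odds of ratios limited to 0.01 and 0.99. Alternatives were edgeR 4.0.16, DESeq2 1.42.0, TMM and autosomal scaling, pseudocount 0.1, minimum 5 RPM or none, no trend, no block, DMSO replicate 3 added and each replicate left out. Fits were tested on simulated data. Named genes were Xist, Mettl3, Kcnq1ot1, the 12 largest called rises and falls alike in both pairs, up to 4 called rises and falls per list, and the 6 largest ratio rises and falls among genes of at least 5 RPM. Ddx3x, Kdm6a, Pbdc1, Snhg1, Snhg7, Snhg12 and Gas5 are named beyond this rule, after their values were seen. Members and lists were chosen with earlier results of these data known. Summaries used pandas 2.3.3, numpy 2.4.6 and scipy 1.17.1 in Python 3.11.15, and plots matplotlib 3.10.9. Promoter sequences are from RefSeq, GRCm38.p6. A few genes that the rule names are not reported here.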

Additional observations from a re-analysis of the deposited data

Results flagged for a closer look

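These 3 results moved one way in both 10 µM pairs and the other way at both higher doses against DMSO replicate 3. Terc had a mean log2 difference of 0.86 at 10 µM and was lower at 20 µM and 30 µM (-1.06 and -0.26). The median log2 difference of the snoRNA host genes was 0.22 at 10 µM and -0.27 and -0.11 at the higher doses. Spaca7 had -0.82 at 10 µM and 0.21 and 0.15 at the higher doses, at which it was at 0.538 and 0.471 RPM against 0.326 RPM in DMSO replicate 3. A single read pair was 0.0466 RPM in DMSO replicate 3, 0.108 RPM at 20 µM and 0.0428 RPM at 30 µM. The reversal of Spaca7 therefore rests on few read pairs, and so does the level of Terc at 20 µM (1.29 RPM). The difference between the doses was not tested, since 20 µM and 30 µM have 1 library each, and dose cannot be told apart from the set of libraries to which each dose belongs.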

How the results depend on the processing

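The count of 1022 called genes stayed within 1.5 times with another pseudocount, filter, TMM or autosomal scaling, edgeR with the block and centring by span (831 to 1289). It was 153 in DESeq2, 1 without the block in limma and in edgeR (the same gene, Cadm2), 0 with DMSO replicate 3 added (217 at an unadjusted p under 0.05) and 0 without the trend (2291). It ran from 0 to 58 with a replicate left out. No label states the pairing for each library, and all calls but that of Cadm2 rest on the replicate block. No X-linked gene was called in the ratio with or without the replicate block (0 in each limma fit, 30 and 33 at an unadjusted p under 0.05). With DMSO replicate 3 added the median ratio difference was -0.00649 in place of -0.0202 and that of the Xi level -0.04 in place of -0.15. The Xist difference turned to -0.27 with DMSO replicate 3 added. The median Xa difference, -0.00488, was 0.00203 without the block, 0.00433 with DMSO replicate 3 added and -0.0104 to 0.000640 with a replicate left out. Centred by span, Mettl3 had -0.0268 (0.04 before centring). The 133 named genes include Xist, Mettl3, Kcnq1ot1 and others that had no call to lose. Without the block 122 lost their call, and Cadm2 alone kept it. The call was lost by 33 in edgeR, 30 with TMM, 25 centred by span and 6 with pseudocount 0.1. In DESeq2 55 of the 92 with an adjusted p lost it, and these 92 also include genes without a call.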

Other observations

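GGACT, a common m6A consensus, was counted in the longest annotated transcript of 13029 tested genes. The median density was 0.923 per kilobase in 529 genes called higher, 0.997 in 437 called lower and 1.04 in 12063 not called. Among the fifth of genes with the lowest density 136 were called higher and 80 lower, and among the fifth with the highest density 92 and 70. These densities are a description of the letters in mature transcripts and were not set against measured m6A.

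Immediate early genes, which respond within minutes to growth signals, had medians of -0.21 in pair 1 and 0.33 in pair 2. Of 21 tested, 2 were called higher (9.52%, against 4.15% of all genes). Of 27 entries named as microRNA genes 3 were called higher (11.1%) and 0 lower, against 4.15% and 3.33% of all genes. The tested entries had a median span of 316032 bases. Mir6989 and Mir466p, among those called, spanned 349772 and 424164 bases, and the other called entry was the host gene Mir17hg. Values of such wide entries count reads over the whole stretch and need not measure a microRNA.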
